A study of Mus musculus with 12 samples.

Results

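Expression of 10 genes of the BCL2 family was followed in mouse myeloid progenitors with 1 floxed Wt1 allele and in their controls. The 10 members, out of 33924 genes counted, were chosen by name, with earlier results of these data known. They are the effectors Bax and Bak1, the anti-apoptotic genes Bcl2, Bcl2l1 and Mcl1, and the BH3-only genes Bad, Bid, Bcl2l11, Bbc3 and Pmaip1. Of these, 9 passed the filter on low counts, and Pmaip1 did not. RNA was read from the 3' end of transcripts in live bone marrow cells sorted as c-Kit+ without lineage markers or Sca1, so levels as counts scaled to a library total of 1e+06 (CPM) can be set side by side between genes without a length correction. The 12 libraries form 4 groups of 3: old Mx+ Wt1fl/+ (old het), old Mx+ Wt1+/+ (old control), young Mx+ Wt1fl/+ (young het) and young Mx+ Wt1+/+ (young control). All mice, controls included, carry Mx, the usual short name of a Cre driven by the interferon-inducible Mx1 promoter, and the design sets hets against controls of the same age. The labels also call every old sample "chronic" and every young one "acute", words left without an explanation, so age and that condition cannot be told apart. Sample titles number the old libraries 1 to 6, the young hets 19 to 21 and young controls 1 to 3 as 29, 30 and 18. What these numbers stand for is not stated, and age cannot be told apart from them either. Neither the ages themselves nor whether replicates came from separate animals is stated, so a p-value here reflects only the spread among these libraries, which may be technical.

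BCL2 family proteins decide at the outer membrane of the mitochondrion whether a cell lives. BAX and BAK permeabilise that membrane and so release cytochrome c, anti-apoptotic members such as BCL2, BCL-XL and MCL1 hold them in check, and BH3-only members answer stress signals by binding the anti-apoptotic proteins or by activating the effectors directly. In blood-forming cells MCL1 is needed for the survival of stem cells and early progenitors, and BIM and PUMA, encoded by Bcl2l11 and Bbc3, carry much of the death signal when growth factors are lacking or DNA is damaged.

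The clearest difference among the members lay between ages. Bax was lower in all 6 old libraries than in all 6 young ones, and between controls both Bax and Bad were lower in old than in young progenitors (edgeR's quasi-likelihood test, adjusted p below 0.05). The call for Bad was lost under 3 alternative settings and that for Bax under 1, and the levels of Bad in old and young hets overlapped. No member passed that threshold between hets and controls at either age. The pro-death genes, 7 of the 10 members, held the larger part of the members' counts in every library. That majority depends on which genes were chosen. Their mean share was lowest in old controls. The stretches of 250 bases just upstream of the annotated starts of Bax and Bad are shown because these genes passed between old and young controls. They come from RefSeq on build GRCm38.p6, which is not the build of the counts, and lie at chr7:45466899-45467148 on the minus strand for Bax and at chr19:6941611-6941860 on the plus strand for Bad. Each reads 5' to 3' towards the gene, and capitals mark a p53 half-site and the E-box CACGTG.
Bax: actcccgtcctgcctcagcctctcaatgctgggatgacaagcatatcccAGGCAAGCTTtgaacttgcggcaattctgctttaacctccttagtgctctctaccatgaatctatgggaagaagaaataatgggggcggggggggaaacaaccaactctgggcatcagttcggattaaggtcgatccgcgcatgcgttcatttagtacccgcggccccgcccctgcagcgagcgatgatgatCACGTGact
Bad: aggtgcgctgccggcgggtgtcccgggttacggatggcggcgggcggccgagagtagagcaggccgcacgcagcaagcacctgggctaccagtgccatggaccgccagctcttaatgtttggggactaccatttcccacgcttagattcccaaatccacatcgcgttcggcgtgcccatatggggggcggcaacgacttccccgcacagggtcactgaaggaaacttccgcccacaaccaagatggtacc
On both strands, the p53 half-site and CACGTG each matched once in the Bax stretch and neither matched in that of Bad. Bad had 2 promoters in the RefSeq table, of which the more upstream is shown, and neither motif matched in the other. Of the 10 members 9 had a promoter in the RefSeq table, 15 promoters in all. The p53 half-site was found in 1 of these 15, against 7.13% of 32841 promoters, and CACGTG in 2 of the 15, against 6.02%. The GC box GGGCGG occurred in 10 of the 15 and in 32.7% of all promoters, and GCGGGGGCG, a motif bound by EGR1 and WT1, in 2 of the 15 (those of Bcl2l11 and Bbc3) and in 2.57% of all. Whether any of these matches is bound in these cells was not tested.

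The libraries held from 645460 to 9645502 counts, and the 10 members together made up 0.0917% to 0.152% of each. Wt1, the floxed gene, was at 3, 2 and 4 counts in old hets 1 to 3 and at 1, 4 and 2 in old controls. It was at 7, 4 and 23 counts in young hets and at 8, 4 and 6 in young controls. These counts are too few to check the genotype, and a 3' tag outside the floxed part would not check it at any depth. The gate marker Kit averaged 194 ± 80.1 CPM in old hets, 190 ± 16.3 in old controls, 129 ± 34.5 in young hets and 190 ± 91.2 in young controls (SD, n = 3 each). Ly6a, which encodes Sca1, had 762 counts in old control 1 and at most 5 in any other library, and the lymphoid and dendritic gene Cd74 was at 202 CPM in that library against at most 19.9 CPM elsewhere. Mitochondrial rRNA took 1.40% to 4.78% of counts in old hets, 1.70% to 2.38% in old controls, 3.0% to 3.51% in young hets and 4.35% to 8.22% in young controls. The summed level of 6 mature neutrophil markers, all above 0 in each group, ranged from 2110 to 5600 CPM in old hets, 2170 to 5930 in old controls, 5860 to 12500 in young hets and 5410 to 11600 in young controls. Xist, the RNA of the inactive X chromosome of female cells, had 1058, 0 and 0 counts in old hets 1 to 3, 5, 5 and 4 in old controls, 1833, 10578 and 12513 in young hets and 4, 1 and 2064 in young controls. It was thus high in all 3 young hets and, among the young controls, in young control 3 alone, so that genotype and the sex of the source were not balanced in the young comparison. Among the old libraries it was high in old het 1 alone, so age and sex were not balanced either. The labels used here name no sex. In sorted bulk RNA, fewer cells of a type and less RNA per cell cannot be told apart.

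**Figure D1:**
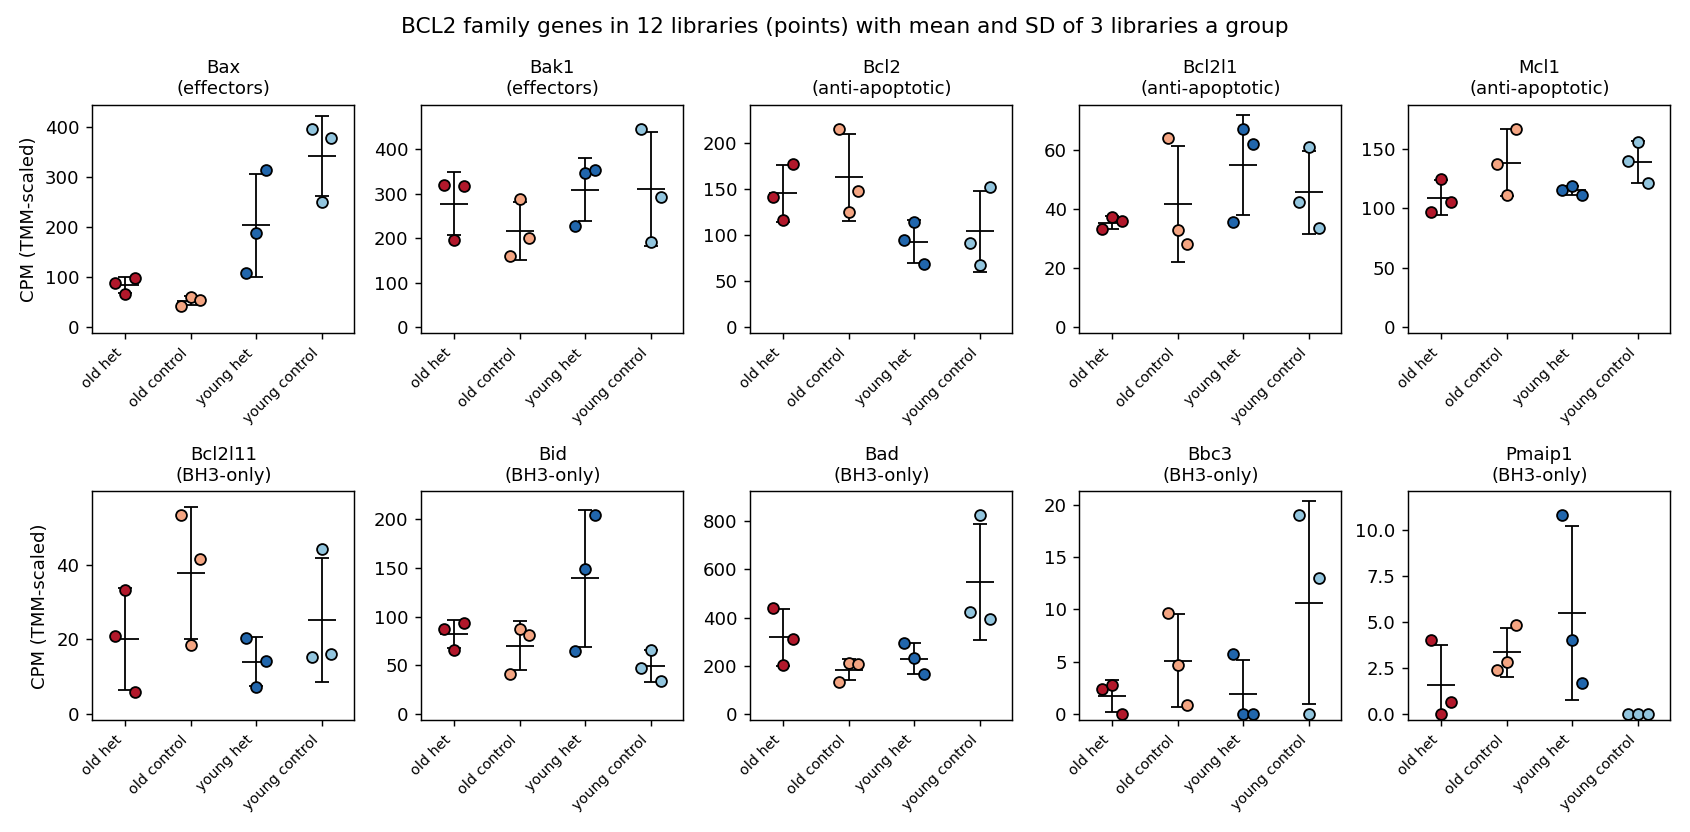
Level of each BCL2 family gene in CPM (vertical axis) in the 4 groups (horizontal axis), with 1 point a library and bars for the mean and SD of 3 libraries. Bax sits below 100 CPM in all 6 old libraries and above it in all 6 young ones, while Mcl1 stays between 97 and 167 CPM throughout.

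Among the effectors, Bax encodes the form that waits in the cytosol and moves to mitochondria upon activation. It had 88.1, 66.5 and 99.2 CPM in old hets 1 to 3 and 43.3, 60.4 and 54.8 CPM in old controls 1 to 3. It had 109, 188 and 313 CPM in young hets and 396, 250 and 377 CPM in young controls. The old libraries lay below the young ones without overlap, the old hets above the old controls, and the young hets overlapped the young controls. In all, 0.971% of the 10604 genes tested were below in all 6 old libraries in this way, and Bax was the only member among the 9 tested.

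Bax fell to a mean of 52.8 ± 8.69 CPM in old controls, against 341 ± 79.3 CPM in young controls (SD, n = 3 each). Its log2 change was -2.69 (SE 0.38, 95% interval -3.49 to -1.9, edgeR adjusted p 0.00088), the 8th smallest p of all genes tested. Leaving out each library in turn kept it between -2.96 and -2.56, with an adjusted p of at most 0.00918. With the share of mitochondrial rRNA as covariate it was -2.82 with an adjusted p of 0.0616, in a fit that called 0 of all genes. With log2 Xist CPM as covariate it was -2.58 (edgeR adjusted p 0.00166). In old hets Bax averaged 84.6 ± 16.6 CPM, against 203 ± 103 CPM in young hets. That log2 difference was -1.27 (SE 0.37, 95% interval -2.03 to -0.5), but its edgeR adjusted p of 0.584 did not pass, although the groups did not overlap. It was -1.04 with log2 Xist CPM as covariate (edgeR adjusted p 0.995).

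Between genotypes, Bax differed by 0.68 on the log2 scale in old hets against old controls (SE 0.37, edgeR adjusted p 0.999) and by -0.75 in young hets against young controls (SE 0.36, adjusted p 0.359). The difference between these effects, old minus young, was 1.42 (SE 0.51, adjusted p 0.234). Neither effect, nor their difference, passed the test. With mitochondrial rRNA as covariate Bax differed by -1.24 in old hets against young hets (edgeR adjusted p 0.691) and by -0.83 in young hets against young controls (adjusted p 0.697). Of the 6 mature neutrophil markers, 6 were lower in old hets than in young hets, with 0 past the threshold. In old controls against young controls 4 were lower and 2, S100a8 and Retnlg, higher, and 1 of the lower ones, Camp, passed. Of 7 erythroid markers, 7 were lower in old hets than in young hets. In old controls against young controls 6 were lower and 1 higher, and 0 passed in either comparison. Of all 10604 genes, 5241 were lower in old hets than in young hets and 4464 in old controls than in young controls. In old controls against young controls 5 of 8 granulocyte and monocyte progenitor markers were higher and 3 lower, and 2 higher ones passed. Of 4 tested lymphoid and dendritic markers, 4 were higher and 2 passed. Of 5 basophil and mast cell markers 4 were higher and 1 passed, and of 6 megakaryocyte markers 5 and 0. Of all genes, 2.79% passed as higher. In old hets against young hets 0 markers of these lists passed. The part of RNA of any of these cell types in the differences of Bax was not tested.

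Bak1 encodes the effector that resides at the mitochondrial membrane, and it had 319, 196 and 317 CPM in old hets and 161, 288 and 200 CPM in old controls. It had 228, 347 and 352 CPM in young hets and 446, 192 and 293 CPM in young controls. All 4 groups overlapped. The largest difference was that of old against young controls, at -0.52 (95% interval -1.26 to 0.21, edgeR adjusted p 0.397). The opposite-strand gene Ggnbp1, which in the GENCODE M21 annotation covers the 3' end of Bak1, had 263 counts over all libraries against 10945 for Bak1, and how reads of the pair were divided is not known.

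Within the effector pair, Bax held a smaller part in old than in young libraries. It took 21.6%, 25.3% and 23.8% of the counts of both effectors in old hets and 21.2%, 17.3% and 21.5% in old controls. Its part was 32.4%, 35.1% and 47.1% in young hets and 47%, 56.5% and 56.3% in young controls. All 6 old libraries lay below all 6 young ones, and the young hets reached up to the lowest young control. The summed level of Bax and Bak1 was 362 ± 86.1 CPM in old hets, 270 ± 73.1 in old controls, 513 ± 166 in young hets and 651 ± 200 in young controls (SD, n = 3 each). These shares and sums were built from chosen genes and are given as a description.

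Among the anti-apoptotic genes, Mcl1 encodes a short-lived protein whose level follows its synthesis closely. It had 97, 125 and 105 CPM in old hets and 137, 111 and 167 CPM in old controls. It had 115, 119 and 111 CPM in young hets and 140, 156 and 121 CPM in young controls. The young hets lay just below the young controls without overlap, while the old groups overlapped. The log2 difference was -0.27 between young hets and young controls (SE 0.3, edgeR adjusted p 0.744) and -0.34 between old hets and old controls (95% interval -0.96 to 0.29). Between old and young controls it was -0.01, with an interval of -0.64 to 0.62 that leaves room for changes of moderate size in either direction.

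Bcl2, the founding survival gene of the family, had 142, 117 and 178 CPM in old hets and 216, 125 and 148 CPM in old controls. It had 95.4, 115 and 68.5 CPM in young hets and 91.9, 68 and 153 CPM in young controls. Every old het exceeded every young het, whereas the control groups overlapped through young control 3. The log2 difference was 0.65 in old hets against young hets (edgeR adjusted p 0.841) and 0.63 in old controls against young controls (adjusted p 0.305). Bcl2 held 50 ± 7.21% of the anti-apoptotic counts in old hets and 47.1 ± 4.38% in old controls, against 35.1 ± 5.9% in young hets and 35.7 ± 13.1% in young controls (SD, n = 3 each).

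Bcl2l1, which encodes BCL-XL, was the lowest of the 3 anti-apoptotic genes by mean level in all 4 groups. It averaged 35.5 ± 2.12 CPM in old hets, 41.8 ± 19.5 in old controls, 55.1 ± 17.1 in young hets and 45.8 ± 14.1 in young controls (SD, n = 3 each). Old control 1, at 64.2 CPM, stood above the 33 and 28.3 CPM of old controls 2 and 3. Its 4 log2 differences between groups lay between -0.63 and 0.29, and none passed the test.

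Among the BH3-only genes, Bad encodes a protein that survival kinases keep inactive by phosphorylation and that otherwise binds BCL2 and BCL-XL. It had 441, 202 and 311 CPM in old hets 1 to 3 and 134, 212 and 207 CPM in old controls 1 to 3. It had 293, 232 and 166 CPM in young hets 1 to 3 and 425, 824 and 394 CPM in young controls 1 to 3. The young controls lay above the old controls and above the young hets without overlap, and young control 2 was far above the rest. Bad was the member with the highest mean level in old hets and in young controls.

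Bad averaged 184 ± 43.6 CPM in old controls, against 548 ± 240 CPM in young controls (SD, n = 3 each). It fell by 1.57 on the log2 scale (SE 0.37, 95% interval -2.35 to -0.79, edgeR adjusted p 0.0154). The call was lost without old control 1 (-1.38, adjusted p 0.0863) and without young control 2 (-1.25, adjusted p 0.0726). It was also lost with the mitochondrial rRNA share entered as covariate, where the change was -0.39 with an adjusted p of 0.804. That fit called 0 of all genes. So 2 of the 9 tested members, Bax and Bad, passed in this comparison and both were lower, where 6.98% of all genes passed and 4.19% passed as lower. Both also had groups that did not overlap, as did 31.2% of all genes, and both made up the members with an unadjusted p below 0.05, as did 23.1% of all genes.

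In young hets Bad averaged 230 ± 63.5 CPM, against 548 ± 240 CPM in young controls (SD, n = 3 each). The log2 difference was -1.25 (SE 0.37, edgeR adjusted p 0.133), and DESeq2 gave -1.31 with an adjusted p of 0.0217. In old hets Bad averaged 318 ± 120 CPM, against 184 ± 43.6 CPM in old controls, a log2 difference of 0.79 (SE 0.37, edgeR adjusted p 0.999). The difference between these effects, old minus young, was 2.03 (SE 0.52, edgeR adjusted p 0.105). It passed with DESeq2 at 2.12 (adjusted p 0.0053), with no filter on low counts at 2.01 (edgeR adjusted p 0.0135), without old het 2 at 2.27 (0.024) and without young control 3 at 2.25 (0.0404). With the mitochondrial rRNA covariate it shrank to 0.67 (edgeR adjusted p 1), and the young genotype difference to -0.39 (adjusted p 0.839) and the old one to 0.28 (adjusted p 1). Old and young hets differed by 0.46 (adjusted p 0.906).

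The level of Bad was higher in the libraries with a high mitochondrial rRNA share. Young control 2 had the highest share, 8.22%, and the highest Bad, 824 CPM. Old hets 1 and 3, at 4.78% and 4.75%, had 441 and 311 CPM of Bad, and young controls 1 and 3, at 5.03% and 4.35%, had 425 and 394 CPM. The other 7 libraries, all at or below 3.51%, had at most 293 CPM. In edgeR only the difference of Bad between old and young controls had passed without this share, and it did not pass with the share as covariate. That fit called 0 of all genes in this comparison, and the shares of the compared groups did not overlap. The part of the share in the differences of Bad was not tested.

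**Figure D2:**
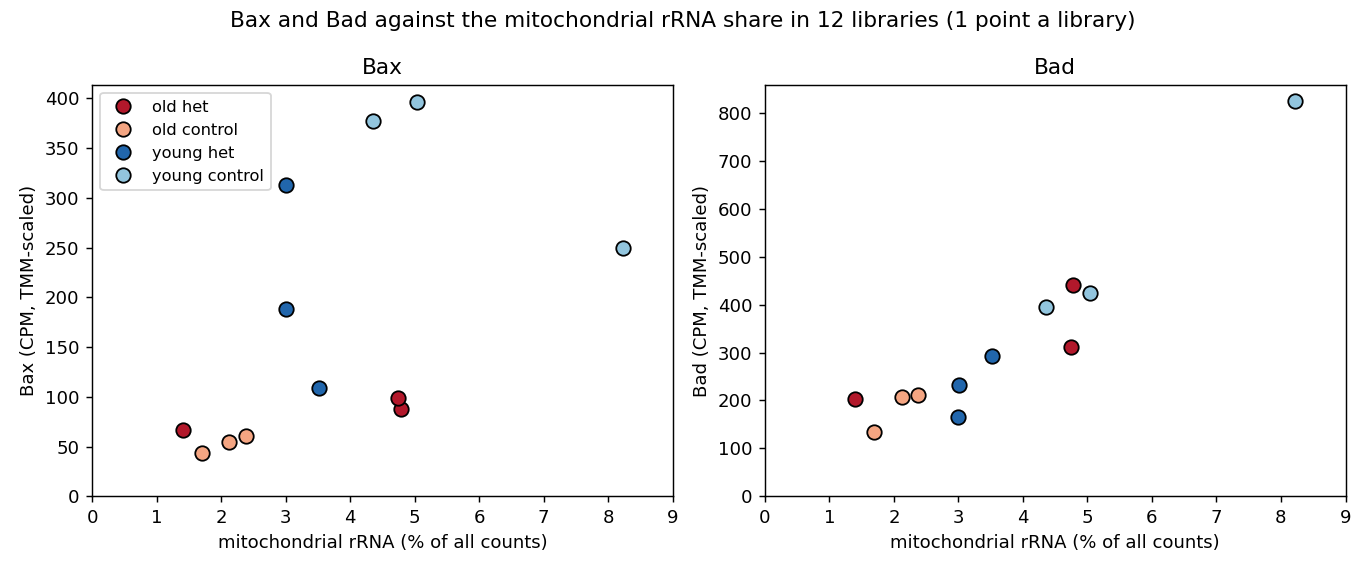
Level of Bax (left) and Bad (right) in CPM against the mitochondrial rRNA share of all counts in percent, with 1 point for each of the 12 libraries, coloured by group. Bad is highest in young control 2 at 8.22% and above 300 CPM in the 5 libraries with shares of at least 4.35%. Bax is below 100 CPM in all 6 old libraries, whose shares run from 1.40% to 4.78%.

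Bid encodes a protein that caspase-8 cleaves, which links death receptors to the mitochondrion. It had 87.3, 66.1 and 93.9 CPM in old hets and 41.2, 87.5 and 81.4 CPM in old controls. It had 64.8, 149 and 204 CPM in young hets and 47.8, 66.3 and 34.4 CPM in young controls. Young hets 2 and 3 exceeded every young control, and young het 1 fell just under the highest of them. Bid averaged 139 ± 70 CPM in young hets, against 49.5 ± 16 CPM in young controls (SD, n = 3 each), a log2 difference of 1.51 (SE 0.44, 95% interval 0.6 to 2.42, edgeR adjusted p 0.118). DESeq2 gave 1.45 with an adjusted p of 0.0414, and edgeR without the filter on low counts gave 1.56 with an adjusted p of 0.0271. With log2 Xist CPM as covariate, the edgeR differences of young hets from young controls were 1.58 for Bid (adjusted p 0.208), -1.31 for Bad (0.184) and -0.92 for Bax (0.322).

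In old hets against old controls Bid differed by 0.24, and the difference between the effects, old minus young, was -1.28 (SE 0.6, edgeR adjusted p 0.381), or -2.02 with the mitochondrial rRNA covariate (adjusted p 1). The opposite-strand gene Bcl2l13, which covers the 3' end of Bid in GENCODE M21, had 2147 counts against 3950 for Bid, so how reads were divided could bear on Bid's level. Bcl2l13 itself differed by 0.83 in young hets against young controls (edgeR adjusted p 0.404). The summed level of 5 basophil and mast cell markers, all above 0 in each group, was 716 to 942 CPM in young hets against 190 to 500 CPM in young controls. Most of that sum was Hdc (624 ± 44.3 CPM in young hets against 162 ± 66.8 CPM in young controls, SD, n = 3 each), the 1 marker of the 5 that passed. Prss34 and Mcpt8 differed by 3.64 (edgeR adjusted p 0.0701) and 0.36, and Cpa3 and Ms4a2 by -0.26 and -0.32. The part of basophil and mast cell RNA in the difference of Bid was not tested.

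Bcl2l11, which encodes BIM, was low and scattered. It had 21, 33.3 and 5.91 CPM in old hets, 53.2, 18.6 and 41.6 CPM in old controls, 20.5, 7.36 and 14.1 CPM in young hets and 15.2, 44.2 and 16 CPM in young controls. All groups that were compared overlapped, and the log2 differences of -0.9 in old hets against old controls and -0.81 in young hets against young controls had SEs of 0.64 and 0.66. None passed the test.

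Bbc3 and Pmaip1 encode PUMA and NOXA, the BH3-only proteins best known as products of p53 target genes. Both were low and scattered, with 0 counts in some libraries. Bbc3 was counted 3, 7 and 0 times in old hets, 106, 20 and 2 times in old controls, 17, 0 and 0 times in young hets and 25, 0 and 17 times in young controls. Its log2 differences had SEs of 1.57 to 2.35, so that no direction can be read from them. Pmaip1 was counted 5, 0 and 1 times in old hets, 26, 12 and 11 times in old controls, 32, 27 and 10 times in young hets and 0 times in all 3 young controls.

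A floor of 3 counts pooled over the young controls was 0.933 CPM. Mean Pmaip1 was 5.9-fold above it in young hets and 3.6-fold above it in old controls. The pooled floor covers counting error only, not the spread between libraries. In young controls 1 to 3 singly, 3 counts equal 2.28, 5.1 and 2.29 CPM. The lowest library was at 1.7 CPM in young hets and at 2.38 CPM in old controls. The first ratio was 3.1-fold without young het 1 and 3.5-fold without young control 1 or 3. The second was 2.1-fold without either of these young controls. Without the filter on low counts the edgeR adjusted p was 0.271 for young hets and 0.232 for old controls, each against young controls. The young controls were among the shallower libraries, so that Pmaip1 below the pooled floor was not detectable there.

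Over the 9 tested members, 0 passed in old hets against old controls with edgeR, DESeq2 or limma-voom, where 0% of all genes passed with edgeR. Here 1 member, Bad, had an unadjusted p below 0.05 against 3.58% of all genes, and 1, Bax, had groups that did not overlap against 11.1%. In young hets against young controls 0 members passed with edgeR and limma-voom and 2, Bad and Bid, with DESeq2, where edgeR passed 0.424% of all genes and DESeq2 3.97% of those it gave an adjusted p. Bad and Bid also had an unadjusted edgeR p below 0.05, against 14% of all genes, and Bad and Mcl1 had groups that did not overlap, against 16.8%.

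For the difference between the effects 0 members passed with edgeR or limma-voom and 1, Bad, with DESeq2, where edgeR passed 0.0849% of all genes and DESeq2 4.87% of those it gave an adjusted p, and 3, Bad, Bax and Bid, had an unadjusted p below 0.05 against 12.8%. In old hets against young hets 0 members passed with any of the 3 tools, against 0.00943% of all genes with edgeR, and 1, Bax, had an unadjusted p below 0.05 against 6.28%. There Bax and Bcl2 had groups that did not overlap, against 14% of all genes. The comparisons of old with young controls and of young hets with young controls share the young controls, so their values for a member are not independent.

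**Figure D3:**
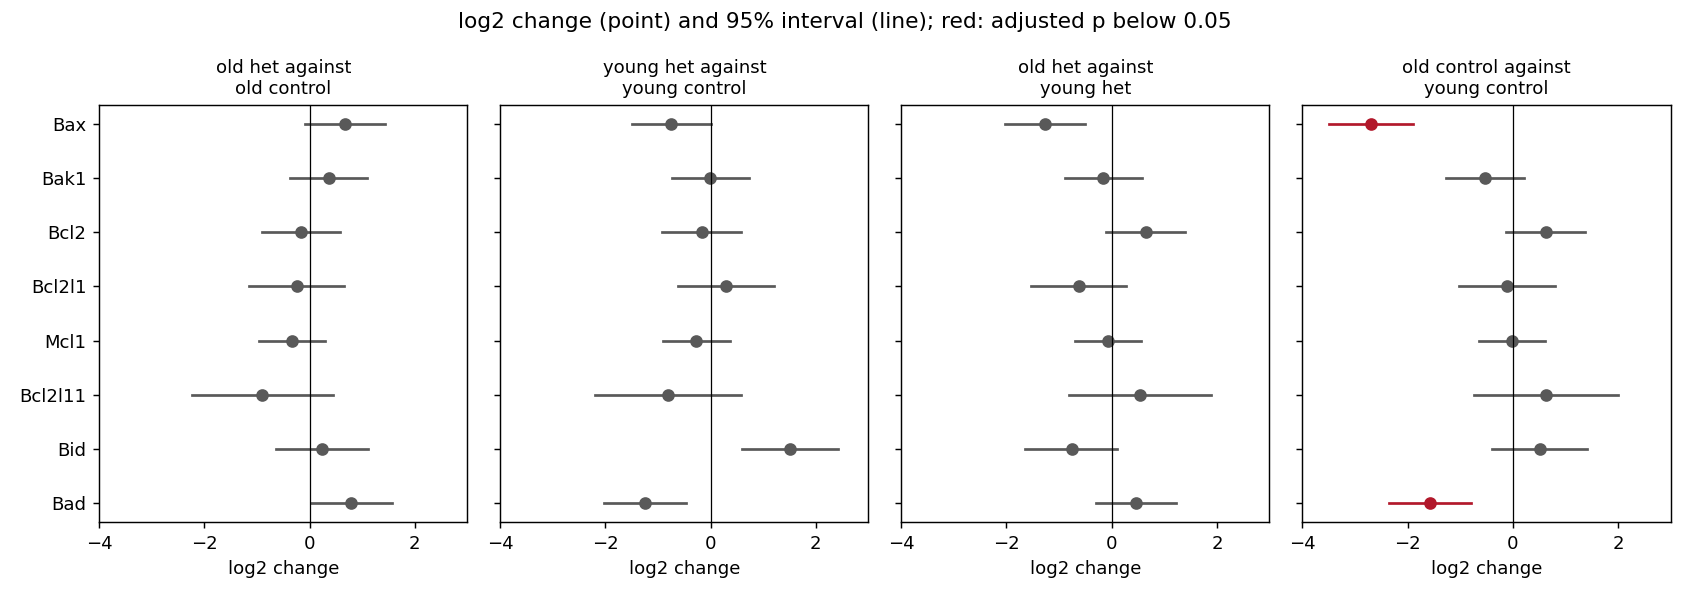
Log2 change (horizontal axis, points) with its 95% interval (lines) of 8 of the 9 tested members in 4 comparisons, one a panel, red where the edgeR adjusted p is below 0.05. Bbc3 is not drawn, since its intervals span most of the range. Only Bax and Bad in old control against young control are red, at -2.69 and -1.57.

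The median log2 difference of the 9 members was -0.16 against -0.05 for all genes in old hets against old controls, and -0.27 against 0.08 in young hets against young controls. In old hets against young hets it was -0.07 against 0.01, and in old controls against young controls -0.1 against 0.22. The 2 members that passed, Bax and Bad in old controls against young controls, were both pro-death genes, as are most of the members chosen.

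The balance between pro- and anti-death members was described as the share of the 10 members' counts that fell on the 7 pro-death genes within a library, so that scaling between libraries does not enter. That share was 77.9%, 67% and 72.2% in old hets 1 to 3 and 51.6%, 71.5% and 63.2% in old controls 1 to 3. It was 74.8%, 75.5% and 81.3% in young hets and 83.1%, 82.8% and 78.6% in young controls. In old control 1, the library with Ly6a and Cd74, the exact 95% binomial interval was 50.6% to 52.7%, which covers counting error only. The old controls lay below the young controls without overlap, and the groups of the other 3 comparisons overlapped.

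The mean share was 72.4 ± 5.45% in old hets and 62.1 ± 10% in old controls, and 77.2 ± 3.57% in young hets and 81.5 ± 2.52% in young controls (SD, n = 3 each). The difference of old controls from young controls was -19.4 percentage points, and -14.1 points without old control 1. Old hets were 10.2 points above old controls, a gap that shrank to 5 points without old control 1. Young hets differed from young controls by -4.3 points, and old hets from young hets by -4.8 points, or -2.1 without old het 2, -2.8 without young het 3 and -7.6 without old het 1. A score over chosen genes gets no test here.

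The summed level of the 7 pro-death genes was 786 ± 201 CPM in old hets, 570 ± 116 in old controls, 903 ± 160 in young hets and 1290 ± 137 in young controls (SD, n = 3 each). That of the 3 anti-apoptotic genes was 290 ± 25 CPM in old hets, 343 ± 74.5 in old controls, 263 ± 33.5 in young hets and 289 ± 16.7 in young controls. The anti-apoptotic sums thus spanned a narrower range of group means than the pro-death sums. These are RNA levels, and BCL2 family proteins are also set by translation, phosphorylation and turnover, which were not measured.

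**Figure D4:**
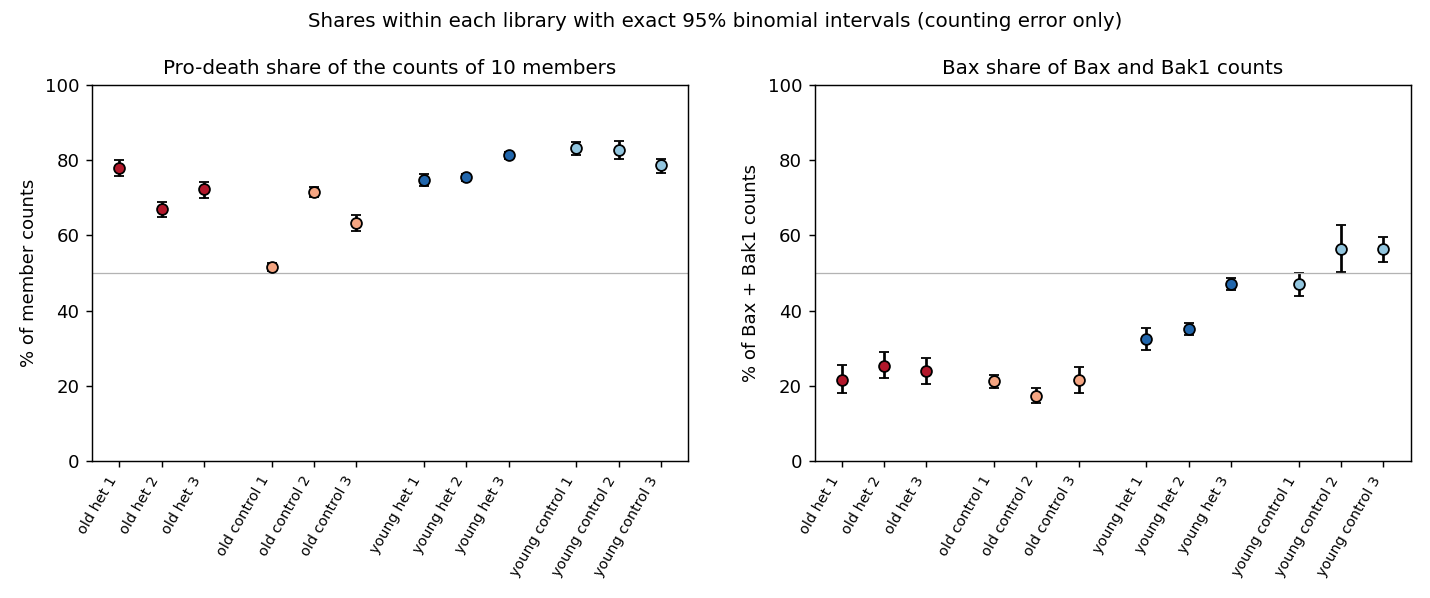
Share of the 10 members' counts on the 7 pro-death genes (left) and of Bax among Bax and Bak1 counts (right) in percent, with 1 point a library and exact 95% binomial intervals for counting error. Old control 1 is the lowest on the left at 51.6%, and on the right all 6 old libraries lie at or below 25.3% while the young ones start at 32.4%.

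Ordered by group means, Bad (318 CPM) and Bak1 (278 CPM) led in old hets, Bak1 (217 CPM) and Bad (184 CPM) in old controls, Bak1 (309 CPM) and Bad (230 CPM) in young hets, and Bad (548 CPM) and Bax (341 CPM) in young controls. Bax ranked 5th in old hets and 6th in old controls, but 3rd in young hets and 2nd in young controls. The first places overlapped in their spread in all 4 groups, so neighbours such as Bad and Bak1 are not told apart. By mean level, Bcl2l11, Bbc3 and Pmaip1 held the last 3 places throughout.

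The genes whose pattern over the 12 libraries was most like that of 1 member of each class, the one with the highest mean CPM over all 12 libraries, were taken by the smallest root mean square difference of centred log2 CPM. For Bak1, whose own SD was 0.44, they were AI314180 (0.21), Fam108c (0.21) and Tmub1 (0.23). For Bcl2, with an SD of 0.51, they were Map3k1 (0.23), Zcchc11 (0.24) and Ehmt1 (0.26). For Bad, with an SD of 0.73, they were Fermt3 (0.19), Hsd17b11 (0.25) and Galnt7 (0.27).

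Of 16 other BCL2 family genes 7 passed the filter, and 0 passed the test in any of the 5 comparisons with edgeR, DESeq2 or limma-voom. At most 1 of them had an unadjusted edgeR p below 0.05 in each comparison, where 3.58% to 23.1% of all genes did. Bnip3 encodes a mitochondrial protein and is induced by low oxygen. It averaged 9.34 ± 1.33 CPM in old controls against 0.506 ± 0.877 CPM in young controls (SD, n = 3 each), with a log2 difference of 3.9 (edgeR adjusted p 0.145). Bcl2l14 differed by -3.32 in young hets against young controls (adjusted p 0.307). Bcl2a1a, Bcl2a1b, Bcl2a1c and Bcl2a1d, near-identical copies whose reads cannot be divided with certainty, were listed at 0 counts in every library.

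Downstream of the membrane, 13 of 14 genes of mitochondrial release, the apoptosome and the caspases and 5 of 5 caspase inhibitors were tested, and 0 passed in any comparison with edgeR. In each comparison 1 to 3 of the first list and 0 to 2 of the inhibitors had an unadjusted p below 0.05, against 3.58% to 23.1% of all genes. DESeq2 passed 1 of them, Htra2 in old controls against young controls, and limma-voom 0. Cycs, which encodes cytochrome c, differed by 2.19 in young hets against young controls (edgeR adjusted p 0.187), and Htra2, a released protease, by 4.26 in the difference between the effects (adjusted p 0.144). Among the inhibitors, Xiap differed by 1.21 in old controls against young controls (adjusted p 0.114) and Birc6 by -1 in young hets against young controls (adjusted p 0.218). Of 12 genes of p53 and its targets 10 were tested and 0 passed with edgeR, with 0 to 2 at an unadjusted p below 0.05 in each comparison, against the same range over all genes. DESeq2 passed 1, Trp53 in the difference between the effects, and limma-voom 0. Trp53 differed by 1.15 in old hets against young hets (adjusted p 0.615), and Mdm2, the ubiquitin ligase of p53, by 1.17 in young hets against young controls (adjusted p 0.176).

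In the death receptor arm, 2 of 6 tested genes of 8 rose in old controls against young controls, where 2.79% of all genes rose, and 0 passed in the other comparisons with edgeR or DESeq2. Cflar, which encodes the caspase-8 inhibitor FLIP, had 115, 106 and 65 CPM in old controls and 33.4, 27.2 and 5.35 CPM in young controls. Its log2 change was 2.14 (SE 0.52, edgeR adjusted p 0.0164). Without old control 1 the adjusted p was 0.0603, without old control 2 it was 0.0513, and with the mitochondrial rRNA covariate 0.361. Ripk1, the kinase that receives signals of the TNF receptor, had 38.5, 38.2 and 24.3 CPM in old controls and 5.31, 10.2 and 7.64 CPM in young controls. Its change was 2.17 (SE 0.65, edgeR adjusted p 0.0492), and the call was lost under 16 of the alternatives, among them leaving out any 1 of the old or young controls.

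Of 12 regulators of the members 11 were tested, and 1 rose in old controls against young controls, where 2.79% of all genes rose. In that comparison 10 of the 11 had a positive log2 difference, as did 6140 of all 10604 genes. Of the 11, 5 had an unadjusted p below 0.05, against 23.1% of all genes. Ywhaz, which encodes a 14-3-3 protein that holds phosphorylated BAD in the cytosol, averaged 368 ± 47.2 CPM in old controls against 158 ± 67 CPM in young controls (SD, n = 3 each). Its change was 1.21 (SE 0.32, edgeR adjusted p 0.0277). The call was lost without old control 2 (adjusted p 0.0996), old control 3 (0.067), old het 3 (0.0575), young control 1 (0.133) or young control 2 (0.143), and with the mitochondrial rRNA covariate (0.83, adjusted p 0.564). The levels in hets were 339 ± 27.9 CPM at old and 357 ± 54.1 CPM at young age, and DESeq2 also passed Ywhaz in young hets against young controls.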

How the data were processed

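The values are counts per gene symbol in 12 libraries, not normalized, as deposited by the authors in a table of 33924 genes. Libraries came from a Lexogen 3' mRNA-seq kit, per the labels' protocols. The submitters' processing notes name STAR 2.4, HTSeq 0.6.1, DESeq2 and build mm9, without order or role. For annotation, strand and molecular identifiers the setting is not given in the sources used, and overlaps of genes, named from GENCODE M21, could not be resolved. The table held 0 sample columns beyond the 12.

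In R 4.3.3, edgeR 4.0.16 fitted the 4 groups together (quasi-likelihood F test, TMM scaling, filterByExpr with a minimum count of 10 and total of 15, 10604 genes), with Benjamini-Hochberg adjustment at 0.05 over all of them. The SE is the absolute log2 change over the square root of F and is approximate. CPM are relative to TMM-scaled totals. One count stood for between 0.0916 and 1.7 CPM. Binomial intervals are exact (Clopper-Pearson) and cover counting error only. Every replicate pair differed by more than sampling noise (chi-square over its degrees of freedom 5.25 to 58.3). Steps were tested on simulated counts.

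Members and lists were chosen with earlier results of these data known. Named genes were all members, list genes past the threshold or else the 2 smallest p-values per list, the 3 most similar genes per class leader, and Wt1. Alternatives were DESeq2 1.42.0, limma-voom (limma 3.58.1), other scaling, no filter, covariates, fewer libraries and the compared groups alone.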

Additional observations from a re-analysis of the deposited data

How the results depend on the processing

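Of the gene values recomputed under all settings, 5 passed the test, and none of them changed sign. Of the 51 that did not pass, none passed with the opposite sign, 44 passed under no alternative and 14 changed sign under some. No paired analysis was possible because the replicate numbers were given in order and pair no samples. The number of members past the threshold was 0 in young hets against young controls but 2 with DESeq2 and 1 without the filter on low counts. For the difference between the effects it was 0 but 1 with DESeq2, 1 without the filter and 0 to 1 when each library was left out. In old controls against young controls it was 2 but 0 with the mitochondrial rRNA covariate and 1 to 2 when each library was left out. The pro-death share of old hets minus young hets was -4.8 points, but -10 with the BH3-only genes left out and -7.6 to -2.1 when each library was left out.

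Over all genes, young hets against young controls gave 45 calls, against 355 with DESeq2, 23 with limma-voom, 258 without the filter, 1 with the mitochondrial rRNA covariate, 21 with Xist as a covariate, 241 without old control 1 (high in Ly6a and Cd74) and young control 3 (the young control with Xist), 13 from the compared groups only, and 1 to 157 when each library was left out. Old hets against old controls gave 0 calls, 11 without the filter and 0 to 1 when each library was left out. The difference between the effects gave 9 calls, against 296 with DESeq2, 2 with limma-voom, 216 without the filter, 0 with the mitochondrial rRNA covariate, 20 with Xist, 59 without both named libraries, and 2 to 294 when each library was left out. It could not be fitted from the compared groups alone, since it needs all 4. Old controls against young controls gave 740 calls, against 1295 with DESeq2, 0 with the mitochondrial rRNA covariate, 372 with Xist, 463 without both libraries, and 315 to 886 when each library was left out. Old hets against young hets gave 1 call, against 15 with DESeq2, 22 without the filter, 2 with the mitochondrial rRNA covariate, 0 with Xist, 8 without both libraries, 2 from the compared groups only, and 0 to 7 when each library was left out. The cause of these differences was not tested.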
